A study of Homo sapiens with 8 samples.

Results

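Transcripts of 10 glycolysis enzymes were followed in A549, a single established human cell line derived from a lung adenocarcinoma and often taken as a model of alveolar epithelial cells. The enzymes were GAPDH, ALDOA, TPI1, PGK1, PGAM1, ENO1, ENO2, PKM, LDHA and PFKFB3, named by symbol, and all 10 were found among the 13841 rows of the count table, each on 1 row. Every library came from cells that had undergone 24 h of cyclic stretch (15% elongation, 15 cycles per min) and then stayed 6 days in culture. The cells were then sorted by staining for β-galactosidase, a lysosomal enzyme whose activity serves as a marker of senescence. The 4 libraries of stained cells carry the label Senescent (numbers 1, 3, 4 and 5), and the 4 of unstained cells carry the label Non_senescent (numbers 2, 6, 7 and 8). The question here is whether the enzymes of sugar breakdown differ between stained and unstained cells. Unstretched cells were not analysed here, so nothing below bears on stretch itself. Whether each library had its own culture is not stated in the labels. The p-values therefore measure only the spread between these samples, and that spread may be technical. In such bulk samples, fewer cells that carry a transcript and less of it per cell cannot be told apart.

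Glycolysis splits glucose into pyruvate in the cytosol, yielding ATP and NADH, and lactate dehydrogenase turns pyruvate into lactate to recover the NAD+ that GAPDH consumes. Many tumour lines, A549 among them, run it even in oxygen. Several of its genes are known targets of the hypoxia-inducible factor HIF-1, and PFKFB3 makes the regulator fructose 2,6-bisphosphate, which activates phosphofructokinase, the committed step.

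The libraries held between 5634961 and 7990839 counts. Epithelial markers (7 of 7 with a row) summed to 2530 to 2993 CPM (counts scaled to a common library size) in Senescent and 2761 to 3563 CPM in Non_senescent libraries. Most of this sum was KRT7, KRT8 and KRT18. Their means were 1322, 623 and 566 CPM in Senescent and 1361, 892 and 647 CPM in Non_senescent libraries. EPCAM averaged 15.7 CPM in Senescent and 16.6 CPM in Non_senescent libraries, and CDH1 46.5 and 57.8 CPM. NAPSA, a type II cell protease, was at or below 1.335 CPM. Fibroblast markers (6 of 8 with a row) summed to 19.4 to 20.5 CPM in Senescent and 18.8 to 22.2 CPM in Non_senescent libraries. The leukocyte list (4 of 6 with a row, led by LYZ, CD68 and CD14) summed to 70.7 to 75.7 CPM in Senescent and 57.9 to 75.6 CPM in Non_senescent libraries. Of the endothelial list only CDH5 was measured, at no more than 1.18 CPM in any library. Senescent 1 and Non_senescent 2 stood apart from the rest. Their median absolute log2 difference from the other libraries of their group was 0.38 and 0.44, whereas the other 6 libraries lay between 0.21 and 0.28. Where the estimate of an enzyme moved by over 1.5 times without either library, it is also given without that library.

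No enzyme of the set differed between the groups past an adjusted p of 0.05. ENO2, the neuron-type enolase, had a higher estimate in Senescent libraries, most of it from Senescent 1, while LDHA and PFKFB3 had lower estimates. The 7 other enzymes had 95% intervals that spanned 0 or too few counts to test. In edgeR's quasi-likelihood test 0 of 11351 rows (0%) passed, DESeq2's Wald test passed 53 (0.467%) and limma voom 0 (0%), none of them a member of the set. At an unadjusted p under 0.05 there were 1631 rows, or 14.4% of those tested, 7.52% higher and 6.85% lower. Of the enzymes, 8 passed the filter on low counts, and 1 of these was higher and 2 were lower at that level. No enzyme had groups that did not overlap, where 9.14% of tested rows did. Of the 8, 6 had a log2 fold change below 0, against 51.9% of all tested rows, with a median of -0.37 beside -0.02 over all tested rows. Values below are CPM with TMM scaling, which corrects for differences in library composition.

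**Figure D1:**
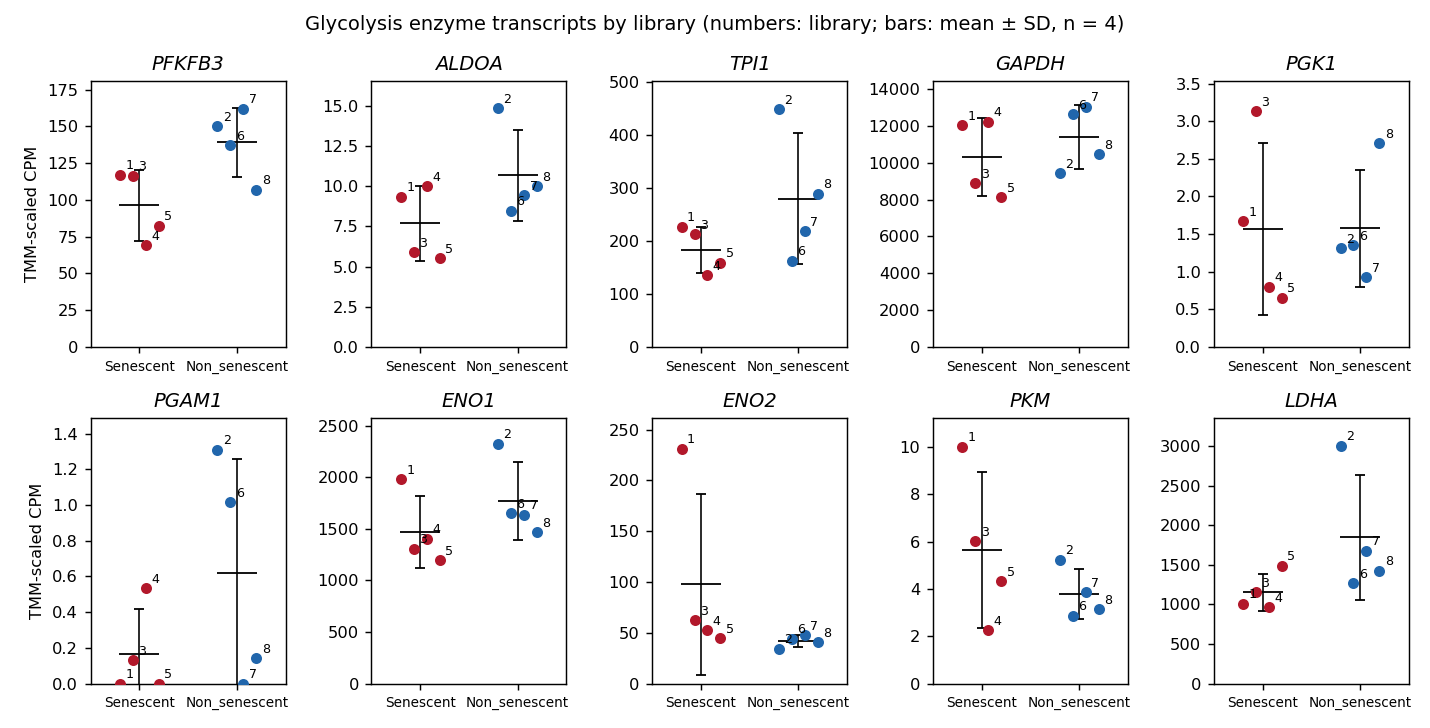
TMM-scaled CPM of the 10 enzymes (vertical axes, each from 0) in the Senescent and Non_senescent libraries, with library numbers beside the points and bars for mean ± SD (n = 4 each; the lower bar of PGAM1 is clipped at 0). The ENO2 point of Senescent 1, 231 CPM, lies far above the other 7 libraries, and Non_senescent 2 is the highest point for TPI1, ENO1, LDHA, ALDOA and PGAM1.

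PFKFB3, the regulator at the top of the pathway, was at 117, 116, 69.3 and 82.4 CPM in Senescent 1, 3, 4 and 5, against 150, 137, 162 and 107 CPM in Non_senescent 2, 6, 7 and 8. Only Non_senescent 8 fell within the range of the Senescent libraries, and Senescent 4 and 5 were the lowest of all. The means were 96.3 ± 24.2 CPM in Senescent and 139 ± 23.7 CPM in Non_senescent libraries (SD, n = 4 each). The log2 fold change was -0.53 ± 0.21 (SE; 95% interval -0.99 to -0.07, edgeR adjusted p = 0.319). By p it stood behind 8.29% of tested rows. This estimate did not rest on the 2 libraries that stood apart, being -0.64 without Senescent 1, -0.48 without Non_senescent 2 and -0.58 without both. It was weakest without Senescent 4 (-0.39), and was -0.40 under scaling by library totals.

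In the first stage of the pathway, aldolase and triose phosphate isomerase turn fructose 1,6-bisphosphate into glyceraldehyde 3-phosphate. TPI1, the isomerase, was at 227, 213, 136 and 159 CPM in Senescent 1, 3, 4 and 5, and at 449, 163, 218 and 289 CPM in Non_senescent 2, 6, 7 and 8. The groups overlapped, and Non_senescent 2 was far above the rest. The log2 fold change was -0.61 ± 0.29 (SE; edgeR adjusted p = 0.354), and -0.27 without Non_senescent 2. ALDOA, the main aldolase of most tissues, had only 42 to 102 counts per library. It was at 9.34, 5.88, 9.99 and 5.51 CPM in Senescent 1, 3, 4 and 5, and at 14.8, 8.46, 9.42 and 9.98 CPM in Non_senescent 2, 6, 7 and 8. Senescent 3 and 5 were the lowest, and the groups overlapped. ALDOA had means of 7.68 ± 2.32 CPM in Senescent and 10.7 ± 2.84 CPM in Non_senescent libraries (SD, n = 4 each) and a log2 fold change of -0.48 (95% interval -1.09 to 0.13), which was -0.27 without Non_senescent 2.

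GAPDH, which oxidises glyceraldehyde 3-phosphate and is often used as a reference transcript, was at 12044, 8897, 12214 and 8115 CPM in Senescent 1, 3, 4 and 5, against 9437, 12628, 13034 and 10456 CPM in Non_senescent 2, 6, 7 and 8. High and low libraries were found in both groups. Its log2 fold change was -0.14 ± 0.19 (SE; 95% interval -0.56 to 0.28, edgeR adjusted p = 0.729). The interval leaves room for a difference in either direction. The estimate was -0.23 without Senescent 1, -0.03 with scaling by library totals and -0.35 with limma voom, which gave Senescent 1 and Non_senescent 2 library weights of 0.335 and 0.265, against 1.04 to 2.83 for the others.

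Enolase turns 2-phosphoglycerate into phosphoenolpyruvate. ENO1 encodes the form found in most cells and ENO2 the form typical of neurons and neuroendocrine cells. ENO1 was at 1982, 1308, 1402 and 1196 CPM in Senescent 1, 3, 4 and 5, and at 2325, 1649, 1637 and 1469 CPM in Non_senescent 2, 6, 7 and 8. Within each group, 1 of the libraries that stood apart was the highest. Senescent 3, 4 and 5 lay below all Non_senescent libraries. The log2 fold change was -0.27 ± 0.21 (SE; edgeR adjusted p = 0.535), -0.44 without Senescent 1 and -0.09 without Non_senescent 2.

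ENO2 was at 231, 62.3, 52.4 and 44.6 CPM in Senescent 1, 3, 4 and 5, against 34.5, 44.3, 47.9 and 40.6 CPM in Non_senescent 2, 6, 7 and 8. Senescent 1 was 5.52 times the Non_senescent mean. Senescent 3 and 4 lay just above the highest Non_senescent library, and Senescent 5 lay below it. With all libraries the means were 97.6 ± 89.3 CPM in Senescent and 41.8 ± 5.73 CPM in Non_senescent libraries (SD, n = 4 each). The log2 fold change was 1.22 ± 0.46 (SE; 95% interval 0.23 to 2.21, edgeR adjusted p = 0.312), with 6.51% of tested rows at a smaller p. Without Senescent 1 the Senescent mean was 53.1 ± 8.90 CPM (SD, n = 3), and the log2 fold change was 0.34. It was 0.28 without both libraries that stood apart, and 0.43 with limma voom. ENO2 lies on chromosome 12 (GRCh38, 6913745 to 6923698, plus strand) near GAPDH (6533927 to 6538374) and TPI1 (6867119 to 6870948). On the centred log2 scale, Senescent 1 was at 0.17 for GAPDH, 0.07 for TPI1 and 2.03 for ENO2. A part of position in these values was not tested. LRRC23, which overlaps ENO2 on the same strand, was at 12.5 to 16.2 CPM in Senescent and 12.98 to 25.2 CPM in Non_senescent libraries.

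**Figure D2:**
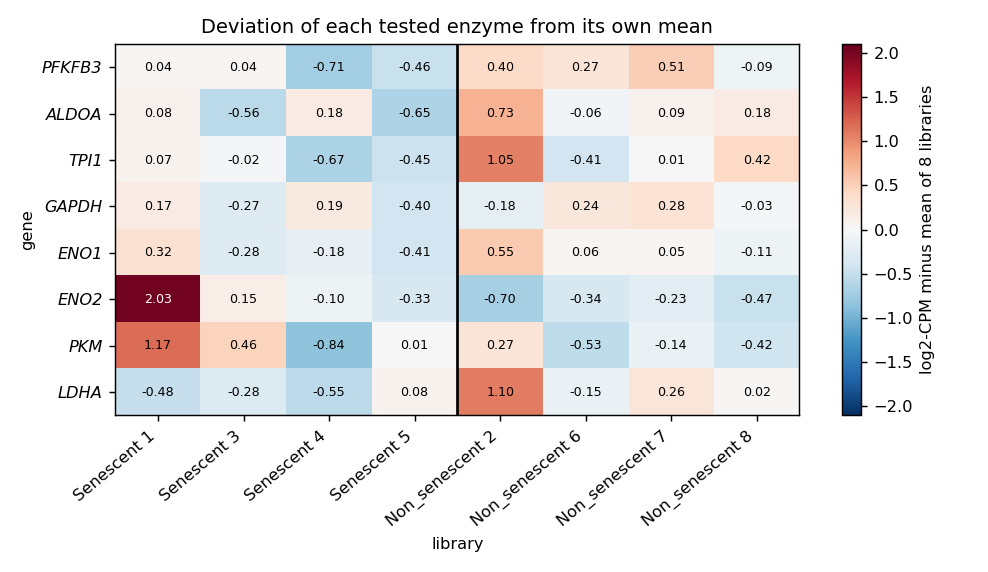
Log2-CPM of the 8 tested enzymes (rows) in each library (columns, Senescent left of the line), each minus its mean over 8 libraries. ENO2 in Senescent 1 is at 2.03, whereas LDHA in the same library is at -0.48, and TPI1 and LDHA reach 1.05 and 1.10 in Non_senescent 2.

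PKM, pyruvate kinase, had 17 to 60 counts per library, so its estimate is imprecise. It was at 10.01, 6.01, 2.27 and 4.33 CPM in Senescent 1, 3, 4 and 5, and at 5.23, 2.88, 3.86 and 3.14 CPM in Non_senescent 2, 6, 7 and 8. Its log2 fold change was 0.56 ± 0.41 (SE; edgeR adjusted p = 0.508), and 0.15 without Senescent 1. Its M1 and M2 splice forms share 1 row.

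LDHA, the lactate dehydrogenase subunit that favours lactate formation, was at 1007, 1155, 963 and 1488 CPM in Senescent 1, 3, 4 and 5, against 3005, 1271, 1679 and 1429 CPM in Non_senescent 2, 6, 7 and 8. Non_senescent 2 was the highest by far, and Senescent 5 lay among the Non_senescent libraries. The log2 fold change was -0.68 ± 0.27 (SE; 95% interval -1.25 to -0.10, edgeR adjusted p = 0.319). It was -0.32 without Non_senescent 2 and -0.26 without both libraries that stood apart. Unlike ENO2, LDHA was low in Senescent 1. LDHA lies on chromosome 11 (GRCh38, 18394388 to 18408425, plus strand).

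PGK1, phosphoglycerate kinase, and PGAM1, phosphoglycerate mutase, had 5 to 24 and 0 to 9 counts per library and did not pass the filter on low counts. PGK1 averaged 1.56 ± 1.14 CPM in Senescent and 1.57 ± 0.78 CPM in Non_senescent libraries (SD, n = 4 each). PGAM1 had 0, 1, 4 and 0 counts in Senescent 1, 3, 4 and 5, and 9, 6, 0 and 1 in Non_senescent 2, 6, 7 and 8. A count of 0 allows up to 3 counts, or 0.501, 0.393 and 0.463 CPM in Senescent 1, Senescent 5 and Non_senescent 7, by counting error only. Fitted without the filter, PGK1 had a log2 fold change of -0.03 (95% interval -1.19 to 1.13) and PGAM1 one of -1.74 (95% interval -4.08 to 0.60; edgeR adjusted p = 0.981 and 0.476). These intervals are too wide to show whether either gene differed. GENCODE lists processed or other copies named after these genes, 13 for PGAM1, 1 for PGK1, 5 for PKM, 2 for ALDOA, 6 for LDHA and 4 for ENO1, and none of them has a row here. Of 62 listed for GAPDH 5 had rows, at 16 to 38 counts together per library, and of 4 for TPI1 1 had a row, at 8 to 50 counts. Adding those rows to their parents left GAPDH at -0.14 and TPI1 at -0.58. The sources used here do not give how reads were divided among near-identical copies, so the low rows are not read as levels of the enzymes.

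As a description of the enzymes with the smallest p, the 250 bases before the RefSeq start (GRCh38.p14) of ENO2, its paralog ENO1 and LDHA are shown, since ENO2 and LDHA gave estimates of opposite sign. Capitals mark ACGTG on either strand (CACGT when read on the strand shown), one of the forms of the HIF-1 core (the other is GCGTG), with overlapping matches joined into 1 place. LDHA has a second listed start, not shown. The windows are chr12:6914330-6914579 (plus strand), chr1:8878687-8878936 (minus strand) and chr11:18394313-18394562 (plus strand).
ENO2: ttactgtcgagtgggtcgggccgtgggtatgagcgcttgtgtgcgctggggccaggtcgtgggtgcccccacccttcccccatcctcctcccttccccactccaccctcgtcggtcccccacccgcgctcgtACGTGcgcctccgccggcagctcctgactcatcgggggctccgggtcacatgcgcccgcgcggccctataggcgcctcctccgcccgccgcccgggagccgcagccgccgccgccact
ENO1: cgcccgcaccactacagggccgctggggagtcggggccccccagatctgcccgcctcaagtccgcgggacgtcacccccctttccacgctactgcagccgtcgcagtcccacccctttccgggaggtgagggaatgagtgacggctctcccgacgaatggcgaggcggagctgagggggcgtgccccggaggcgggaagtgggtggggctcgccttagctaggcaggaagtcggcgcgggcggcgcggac
LDHA: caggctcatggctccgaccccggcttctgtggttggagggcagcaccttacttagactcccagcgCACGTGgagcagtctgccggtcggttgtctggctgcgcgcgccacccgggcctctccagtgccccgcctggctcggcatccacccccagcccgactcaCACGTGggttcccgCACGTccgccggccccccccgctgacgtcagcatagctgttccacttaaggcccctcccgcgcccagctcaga

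ENO2 held 1 such place, beginning at base -118 from the start, LDHA held 3, at -185, -87 and -73, and ENO1 held none in this window. The form GCGTG, searched on both strands, stood at 2 places in the ENO1 window and at none in the ENO2 and LDHA windows shown, and 32.2% of all windows held it. The window of the second LDHA start (chr11:18396101-18396350) held no ACGTG and 1 GCGTG. All 10 enzymes matched RefSeq, with 15 windows in all, since some have several listed starts. At least 1 window held ACGTG for 7 of the 10 (GAPDH, ALDOA, TPI1, PGK1, ENO2, LDHA and PFKFB3), and 9 of the 15 windows did. Of all 35116 listed windows of the same length 18.5% held it, a share per window and not per gene. The form GCGTG stood in 1 window each of TPI1, PGK1, ENO1, LDHA and PFKFB3. No window of GAPDH, ALDOA, PGAM1, ENO2 or PKM held it. ACGTG was present before ENO2, with an estimate above 0, and before genes with estimates below 0. PKM, the other tested enzyme with an estimate above 0, had no ACGTG in its window. A match is a description of these letters and shows no binding, and a link between matches and estimates was not tested.

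Added over the 10 enzymes, the set came to 15630, 11766, 14850 and 11095 CPM in Senescent 1, 3, 4 and 5, against 15424, 15907, 16792 and 13806 CPM in Non_senescent 2, 6, 7 and 8. Senescent 3 and 5 were the lowest, and the other Senescent libraries lay within the Non_senescent range. GAPDH gave 61.2 to 82.2% of these counts. The means were 13335 ± 2239 CPM in Senescent and 15482 ± 1253 CPM in Non_senescent libraries (SD, n = 4 each). Without GAPDH they were 3018 ± 405 CPM in Senescent and 4093 ± 1280 CPM in Non_senescent libraries. As a share of all counts the set was at 1.39 ± 0.24% in Senescent and 1.48 ± 0.12% in Non_senescent libraries (SD, n = 4 each). These differences are smaller than 1 SD of the more variable group and were not tested, since no p is given for a sum over chosen genes.

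Ratios of related enzymes within a library do not depend on how libraries are scaled, though a ratio of counts is not a ratio of molecules, since each transcript has its own amplicon. Of 6 pairs, 5 had enough counts to test, and 3 of the 5 differed between the groups with no overlap, at the smallest p that 4 against 4 libraries allow (exact two-sided permutation p = 0.0286, 0.0476 after Benjamini-Hochberg adjustment over 5 pairs). ENO2 was among the genes known to stand out before these pairs were written, so this is not independent evidence. Such patterns were common: among all tested rows the ratio to ENO1 was higher in Senescent libraries without overlap for 8.89%, the ratio to ALDOA likewise for 10.5%, and the ratio to PFKFB4 lower for 8.51%.

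Per 100 counts of ENO1 there were 11.7, 4.77, 3.73 and 3.73 counts of ENO2 in Senescent 1, 3, 4 and 5, against 1.48, 2.69, 2.92 and 2.77 in Non_senescent 2, 6, 7 and 8. All 4 Senescent libraries were above all 4 Non_senescent ones, and the 2 libraries that stood apart held the extremes. The mean log2 ratio was -4.24 ± 0.78 in Senescent and -5.39 ± 0.46 in Non_senescent libraries (SD, n = 4 each), a difference of 1.14. It was 0.76 without Senescent 1 (exact permutation p = 0.0286), 0.92 without Non_senescent 2 (exact permutation p = 0.0857) and 0.54 without both. With 3 against 3 libraries the exact p cannot go below 0.1, the value found.

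ALDOC encodes the aldolase typical of brain. It was at 236, 88.9, 58.7 and 50 counts per 100 of ALDOA in Senescent 1, 3, 4 and 5, and at 14.7, 46, 45.9 and 35.7 in Non_senescent 2, 6, 7 and 8. The groups were parted narrowly, by Senescent 5 (21 counts of ALDOC and 42 of ALDOA) and Non_senescent 6 (23 and 50). Such low counts leave this ratio imprecise. The log2 difference of 1.43 was 0.96 without Senescent 1 and 1.06 without Non_senescent 2 (exact permutation p = 0.0857 and 0.143). PFKFB3 relative to its paralog PFKFB4, which is also known as a HIF-1 target, had log2 ratios of 1.81, 4.14, 4.001 and 3.48 in Senescent 1, 3, 4 and 5, and 4.54, 4.69, 5.06 and 4.72 in Non_senescent 2, 6, 7 and 8. Each Senescent library was below each Non_senescent one. The difference of -1.39 was -0.88 without Senescent 1 (exact permutation p = 0.0286) and -1.46 without Non_senescent 2 (exact permutation p = 0.0857).

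The 2 other tested pairs overlapped between groups, where ratios to PFKL were lower without overlap for 3.34% of tested rows and ratios to LDHB for 0.0441%. The phosphofructokinase pair PFKP to PFKL differed by -0.56 on the log2 scale (exact two-sided permutation p = 0.0857, adjusted p = 0.107). LDHA to LDHB, the subunit typical of heart, differed by -0.15 (exact two-sided permutation p = 0.714, adjusted p = 0.714) and had the opposite sign without Senescent 1 (0.10) or without Non_senescent 2 (0.02). The hexokinases HK1 and HK2, which trap glucose in the cell, had 0 to 5 and 0 to 8 counts per library and are given as values only.

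**Figure D3:**
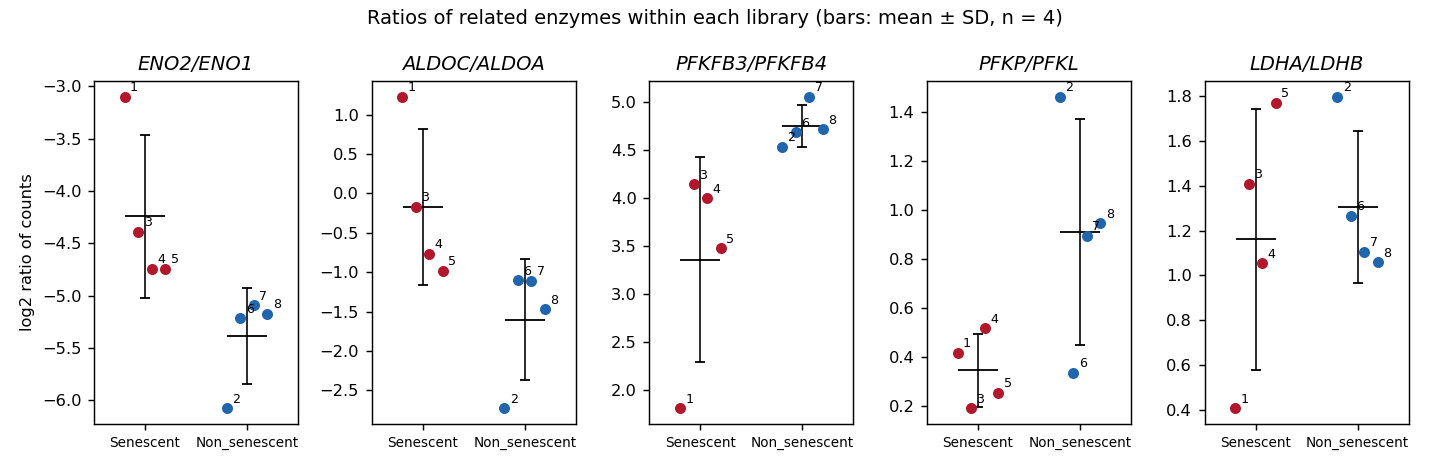
Log2 ratio of counts of related enzymes within each library (vertical axes do not start at 0), Senescent left of Non_senescent, with library numbers and bars for mean ± SD (n = 4 each). The groups part for ENO2/ENO1, ALDOC/ALDOA and PFKFB3/PFKFB4 and overlap for PFKP/PFKL and LDHA/LDHB.

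Around the set, 89 further genes of glucose use were listed, of which 59 were tested. Of these, 4 were higher and 4 lower at an unadjusted p under 0.05, close to the shares over all tested rows, and none passed adjustment. Among the other genes of the upper pathway (6 of 12 tested), 1 was higher and none lower. This was ALDOC, at 22.02, 5.23, 5.86 and 2.75 CPM in Senescent 1, 3, 4 and 5 and 2.18, 3.89, 4.32 and 3.57 CPM in Non_senescent 2, 6, 7 and 8, with a log2 fold change of 1.34 and of 0.40 without Senescent 1. PFKM, the muscle-type phosphofructokinase, was at 25.1 ± 3.72 CPM in Senescent and 19.6 ± 1.92 CPM in Non_senescent libraries (SD, n = 4 each). Its groups did not overlap, as for 5% of all tested rows in this direction. Its log2 fold change was 0.36, and the liver-type PFKL was at 0.29 (0.06 without Senescent 1). Of the other PFKFB genes PFKFB4 was tested, at 33.4, 6.53, 4.26 and 7.34 CPM in Senescent 1, 3, 4 and 5 and 6.40, 5.25, 4.79 and 3.99 CPM in Non_senescent 2, 6, 7 and 8. Its log2 fold change of 1.32 was 0.24 without Senescent 1. ENO2, ALDOC and PFKFB4 thus shared 1 library with a high value.

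In the lower pathway none of 3 tested genes of 7 reached that level. ENO3, the muscle-type enolase, was at a log2 fold change of 0.56 (0.16 without Senescent 1), and BPGM, which makes 2,3-bisphosphoglycerate, at -0.49 (-0.25 without Non_senescent 2 and -0.10 without both). PGAM4 was at 0.08, and between -0.28 and 0.55 with 1 library left out. PGAM4 overlaps PGK1 on the opposite strand and resembles PGAM1, so its row is uncertain. Of the other lactate dehydrogenase genes (2 of 5 tested) LDHAL6B was higher at that level, where 7.52% of all tested rows were higher. LDHAL6B was at 30.7 ± 23.5 CPM in Senescent and 11.5 ± 3.81 CPM in Non_senescent libraries (SD, n = 4 each). Its log2 fold change was 1.41 (edgeR adjusted p = 0.309). It was 0.76 without Senescent 1, and the gene overlaps MYO1E on the opposite strand. LDHB was at 523 ± 158 CPM in Senescent and 715 ± 144 CPM in Non_senescent libraries, a log2 fold change of -0.45, and at -0.68 without Senescent 1.

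Glucose enters through SLC2A transporters and lactate leaves through SLC16A3, with BSG as its chaperone. Of 13 such genes 8 were tested, 1 higher and none lower at an unadjusted p under 0.05. Of all tested rows 7.52% were higher at that level. SLC16A3 was at 97.6, 46.3, 50.1 and 44.3 CPM in Senescent 1, 3, 4 and 5, and at 16.9, 44.7, 42.8 and 36.9 CPM in Non_senescent 2, 6, 7 and 8. The 2 libraries that stood apart were its highest and lowest, and the other 6 differed little. The log2 fold change of 0.75 was 0.41 without Senescent 1 and 0.20 without both of them. BSG was at 0.47 and SLC2A3 at 0.59, and at 0.11 and 0.09 without both. SLC16A3 overlaps CSNK1D on the opposite strand.

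Pyruvate enters mitochondria and is oxidised by the pyruvate dehydrogenase complex, which PDK kinases switch off. Of 14 listed genes 13 were tested, none higher and 2 lower at an unadjusted p under 0.05, where 6.85% of all tested rows were lower. DLAT, the acetyltransferase core of the complex, was at 13.7, 31.6, 29.7 and 28.3 CPM in Senescent 1, 3, 4 and 5, and at 54.1, 38.8, 36.4 and 44.8 CPM in Non_senescent 2, 6, 7 and 8. PDHX, its binding partner in the core, was at 34.0, 34.4, 26.5 and 35.0 CPM in Senescent 1, 3, 4 and 5, and at 54.4, 38.1, 54.0 and 39.1 CPM in Non_senescent 2, 6, 7 and 8. For DLAT and PDHX alike, every Senescent library was below every Non_senescent one, as for 4.14% of all tested rows. The log2 fold changes were -0.75 ± 0.26 and -0.51 ± 0.19 (SE; edgeR adjusted p = 0.309 and 0.312). Without both libraries that stood apart they were -0.40 and -0.43. PDK3, on 4 to 43 counts per library, was at 1.07, and at 0.44 in the lowest estimate with 1 library left out. It was at 5.64 CPM in Senescent 5, and its other Senescent values ran from 1.17 to 2.22 CPM. DLAT overlaps PIH1D2 and PDHX overlaps APIP on the opposite strand, and whether counting used strand is not known from the sources, so reads from any stretch that a pair shares cannot be told apart.

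**Figure D4:**
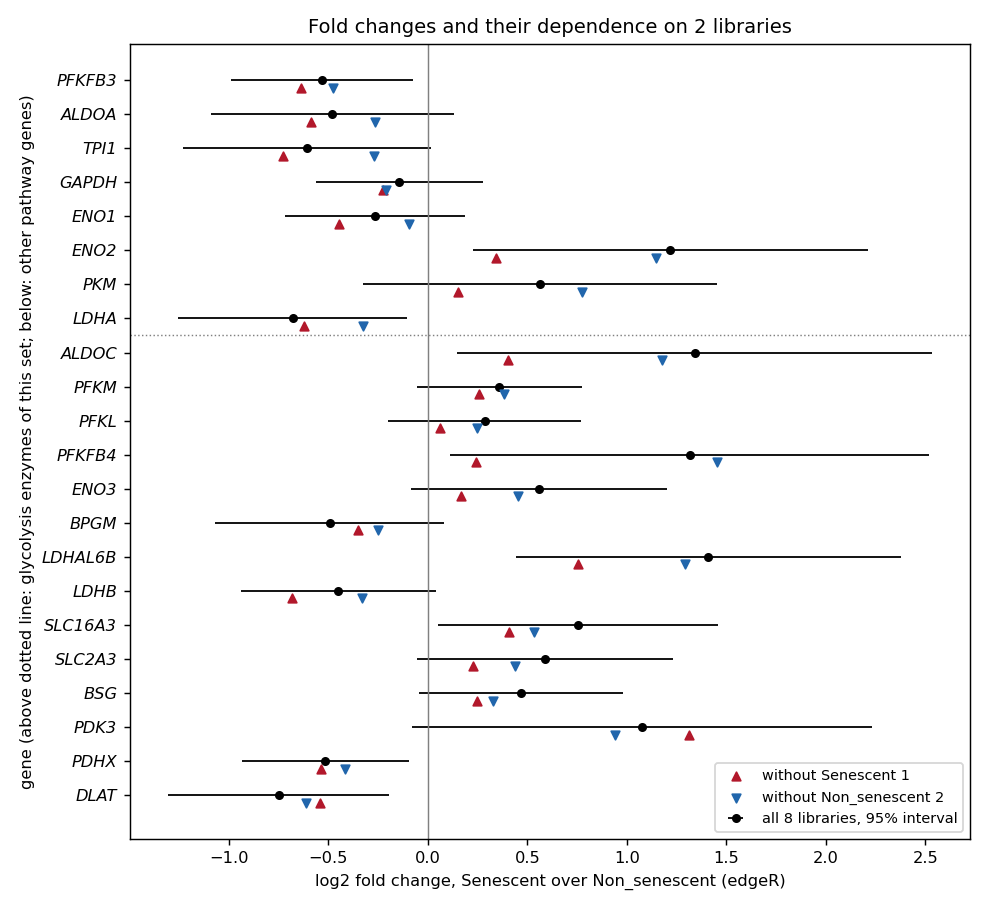
Log2 fold change, Senescent over Non_senescent, of the 8 tested enzymes (above the dotted line) and 14 other genes of glucose use (below), with 95% intervals from edgeR and the estimates without Senescent 1 or without Non_senescent 2. ENO2 moves from 1.22 to 0.34 and PFKFB4 from 1.32 to 0.24 without Senescent 1, whereas PFKFB3, PDHX and DLAT stay at -0.41 or lower without either library.

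Likeness of pattern was measured as the root mean square difference of centred log2-CPM over 8 libraries, among 6069 other rows with a mean of at least 20 CPM. Closest to ENO2 were LUC7L3, a splicing factor gene (0.21), PER1, a circadian repressor (0.224), PPAN (0.245) and ZMIZ1 (0.257), where the median over all candidates was 0.886. LUC7L3 was at 283 CPM in Senescent 1, and its other 7 values ran from 50.3 to 63.5 CPM, so the likeness rests mostly on that library. Closest to GAPDH were PAQR5 (0.0827), TNFRSF21 (0.0984), the glycogen branching enzyme GBE1 (0.100) and KHDRBS1 (0.105), where the median was 0.380. GBE1 was at 34.7, 28.4, 36.2 and 27.1 CPM in Senescent 1, 3, 4 and 5 and 30.1, 35.5, 36.0 and 34.2 CPM in Non_senescent 2, 6, 7 and 8, and, as for GAPDH, Senescent 1 and 4 were high and Senescent 3 and 5 low.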

How the data were processed

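RNA was measured in 8 libraries of sorted A549 cells, with an Ion Torrent amplicon kit on total RNA, per the labels' protocols. Counts from such amplicons do not follow transcript length. Sums, shares and ratios over different genes are therefore of counts and not of molecules. The tools were fastp 0.20.1 and Salmon 1.9 and the build GRCh38, per the submitters' processing notes. Annotation, strand setting and row filter were not given in the sources used. The authors' table holds whole-number estimated counts as deposited, and each row was above 0 in at least 5 libraries.

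From the 13841 rows filterByExpr (minimum count 10, total 15) kept 11351. They were tested with edgeR 4.0.16 (TMM factors 0.862 to 1.07, robust quasi-likelihood test, R 4.3.3), with Benjamini-Hochberg adjustment over all tested rows and a threshold of 0.05. DESeq2 1.42.0 and limma 3.58.1 (voom with library weights) were alternatives. Ratios used counts plus 0.5 and an exact two-sided permutation test over 70 assignments. Centred log2-CPM used a prior count of 2. Intervals are 95%. Positions and overlaps are from GENCODE 29 (GRCh38) and sequences from RefSeq. The test was checked on simulated counts. Each pair of libraries differed beyond sampling noise, at a chi-square per degree of freedom of 8.44 or more.

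The members, gene lists and tests were chosen with earlier results of these data known. The genes named were the 10 members, the 3 of smallest p in each pathway list and the 4 most like ENO2 and GAPDH. To these KRT7, KRT8, KRT18, EPCAM, CDH1, LYZ, CD68, CD14, CDH5, NAPSA, HK1, HK2, PFKP, HIF1A and overlapping genes were added as values.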

Additional observations from a re-analysis of the deposited data

Results flagged for a closer look

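In a group of 4 libraries, a value was singled out when its gap to the nearest other exceeded Dixon's critical value for 4 samples. Of 34 groups of values examined 3 were singled out, where chance gives about 1 in 20 for independent groups. These groups share libraries and genes, and ENO2 in Senescent 1 was known to stand out beforehand. The count therefore cannot be judged against that rate. ENO2 in Senescent 1 was at 231.1 CPM, with the nearest Senescent library at 62.3 CPM. The log2 ratio of ENO2 to ENO1 in Non_senescent 2 was -6.073, with the nearest Non_senescent library at -5.21. The log2 ratio of HK2 to HK1 in Non_senescent 2 was -3.459, with the nearest at 0, and it rests on 0 and 5 counts. Senescent 1 and Non_senescent 2 also had the 2 lowest library weights in limma voom, 0.335 and 0.265, and the part of library quality in these values was not tested.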

How the results depend on the processing

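No paired analysis was made, since each library number was used once and the labels do not say which libraries shared a culture. Any pairing of stained and unstained cells from 1 culture is therefore not accounted for. Across 18 or 19 alternatives per enzyme (other scalings, filters and tools, each library left out, rows or copies summed), the 8 tested enzymes kept the sign of their log2 fold change, and none reached an adjusted p of 0.05, the lowest being 0.152 (ENO2, DESeq2). Of all rows, DESeq2 called 53, and leaving out 1 library gave 0 to 1. Enzymes at an unadjusted p under 0.05 were 1 higher and 2 lower. They were 0 higher and 4 lower with limma voom, and 1 higher and 1 lower with scaling by library totals. Without both Senescent 1 and Non_senescent 2 they were 0 higher and 1 lower. With 1 library left out they were 0 to 2 higher and 0 to 3 lower. The cause was not tested. Scaling by totals put the median of all rows at 0.0971 instead of -0.0185. Of the other pathway genes, chosen as a count after seeing the data, limma voom put 1 higher and 12 lower, and the fit without both libraries 2 and 8. Over all rows, in either direction, 1857 of 11351 were at that level with limma voom and 1145 of 11401 without both libraries. In the main fit it was 1631 rows, with scaling by totals 1486, and with 1 library left out 1117 to 1980.

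With 1 library left out, the log2 ratio difference ranged from 0.76 to 1.31 for ENO2/ENO1 (not past 0.05 without Non_senescent 2), 0.96 to 1.70 for ALDOC/ALDOA (not past it without Senescent 1 or any 1 Non_senescent library), -1.65 to -0.88 for PFKFB3/PFKFB4 (not past it without any 1 Non_senescent library), -0.76 to -0.38 for PFKP/PFKL (past it without Non_senescent 6) and -0.35 to 0.10 for LDHA/LDHB, which turned in sign. Without both libraries they were 0.54, 0.59, -0.95 and, for LDHA/LDHB, 0.27, and 3 against 3 libraries cannot pass 0.05. The summed CPM difference, -2147 with all libraries, ranged from -2912 to -1400 with 1 library left out. It was -961 with scaling by library totals. Low counts leave PGK1, PGAM1, HK1 and HK2 without a precise comparison, and why these rows are low was not tested.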

Other observations

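Of glycogen and gluconeogenesis genes 9 of 15 were tested, none higher and 1 lower at an unadjusted p under 0.05. Of all tested rows 6.85% were lower at that level. PYGL, the liver glycogen phosphorylase that releases glucose 1-phosphate, was at 76.5 ± 12.7 CPM in Senescent and 109 ± 26.9 CPM in Non_senescent libraries (SD, n = 4 each). Its log2 fold change was -0.51 (edgeR adjusted p = 0.319). It was -0.32 without Non_senescent 2 and -0.43 without both Senescent 1 and Non_senescent 2. UGP2, which makes UDP-glucose, was at -0.38 (-0.19 without Non_senescent 2 and -0.11 without both), and PGM1 at 0.42 (0.22 and 0.15 in the same fits).

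Of 19 regulators 17 were tested, none higher and 1 lower at an unadjusted p under 0.05, where 6.85% of all tested rows were lower. EGLN2, a prolyl hydroxylase that marks HIF subunits for decay, was at 50.7 ± 9.82 CPM in Senescent and 73.9 ± 19.6 CPM in Non_senescent libraries (SD, n = 4 each). Its groups did not overlap, as for 4.14% of all tested rows in this direction. The EGLN2 log2 fold change was -0.54 (edgeR adjusted p = 0.319), -0.32 without Non_senescent 2 and -0.19 without both Senescent 1 and Non_senescent 2. PRKAB1, an AMPK subunit, was at -0.48 (-0.31 without Senescent 1) and HIF1AN at -0.29. HIF1A was at -0.05 (95% interval -0.43 to 0.33), and at 0.04 without Senescent 1.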
